A study of Mus musculus with 18 samples.

Results

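The cells described here are the retinal cells left after microglia had been taken out, from rd1 mice on the FVB background at postnatal day 30. Libraries were chosen by their labels: 2 non-microglia libraries from retinas given AAV8-GFP together with AAV8-TGFB1, against 2 from retinas given AAV8-GFP alone, which makes 4 of the 18 libraries of the series. The other 14 are microglia, 7 for each treatment. All mice carried the rd1 mutation and all had received the green fluorescent protein virus by subretinal injection, so both groups share the degeneration and the reporter and differ by the added transforming growth factor beta 1 (TGFB1) virus. The labels do not give the promoter that drives TGFB1, nor whether its coding sequence is of mouse or human origin. Retinas were dissociated with papain, stained with antibodies and sorted into lysis buffer, and polyA RNA was read by a modified Smart-Seq2 protocol, a full-length method for small cell numbers. The labels are silent on whether replicate libraries were made from different mice. The p-values therefore reflect differences between libraries of 1 group that may be technical.

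In rd1 mice a mutation of the rod phosphodiesterase gene Pde6b kills rods early and cones later, while the inner retina, with its bipolar cells, amacrine cells, ganglion cells and Mueller glia, outlives them for a time. Bipolar cells carry the photoreceptor signal inward. ON bipolar cells sense glutamate through the metabotropic receptor mGluR6, which acts through the G protein Go to close the cation channel TRPM1, and rod bipolar cells are the ON type that serves rods. TGF-beta 1 is secreted in a latent form, is freed by integrins and proteases, and signals through a receptor kinase pair to SMAD2 and SMAD3, and microglia are among its best known target cells in the retina.

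The 4 libraries held 2378669 and 2392931 counts for TGFB1 and 2604930 and 2318212 for GFP, with a count in 22274 to 23158 genes. Levels are counts scaled to 1e+06 per library (CPM) with TMM factors of 0.990 to 1.02, and 3 counts, taken as the floor, correspond to 1.14 to 1.32 CPM. The fraction matched its label by markers: on the scale of the fit of all 18 libraries Cx3cr1, the fractalkine receptor of microglia, stood at 0 to 0.652 CPM in non-microglia against 4845 to 5970 in microglia (median 5218), and Tmem119 at 0 to 0.337 against 3044 to 4132. The 17 genes of the microglia and macrophage list summed to 87.96 to 102 CPM, of which 3 had no count in any of the 4 libraries. The 16 Mueller glia genes summed to 28229 to 32219 CPM. The rod factor gene Nrl had no count. Xist had 0 or 1 count and Y chromosome genes 553 to 644 counts in each library. The share of counts from mitochondrial genes was 1.66% and 1.85% with TGFB1 and 1.61% and 1.51% with GFP, and that from rRNA repeat genes 10.2% and 10.6% against 9.16% and 10.9%; the part of either in the results was not tested.

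Tgfb1 was the gene that separated the groups most. This gene (ENSMUSG00000002603, protein-coding, GRCm38 chr7:25687002-25705077) had 462 counts in TGFB1 library 1 and 402 in library 2, and 0 in both GFP libraries. These are 197 CPM (95% Poisson interval 179.8 to 216, counting error only) and 171 CPM (154.5 to 188). A count of 0 allows up to 1.14 and 1.32 CPM in the GFP libraries, so the lowest TGFB1 library was at least 129-fold higher than the highest floor of a GFP library (edgeR adjusted p = 3.71e-15). The table counts reads per gene and cannot tell vector RNA from the RNA of the cells' own gene. Tgfb1 passed the filter on low counts through the TGFB1 libraries alone.

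Beyond Tgfb1, 8 of 16 ON bipolar genes and 4 of 6 rod bipolar genes were higher in the non-microglial cells of TGFB1 retinas, and the hemoglobin genes Hbb-bs, Hba-a1 and Hbb-bt were lower. Of the secretory and synaptic lists, 3 of 11 granin and prohormone processing genes and 2 of 21 synaptic genes passed the test, all higher. The gene lists were drawn up with earlier results of these data known, so counts of calls in a list are descriptive and no independent test. Of 13598 genes tested, 46 were higher in TGFB1 retinas (0.338%) and 7 were lower (0.0515%), 53 in all (0.39%), at an adjusted p under 0.05, which is what "called" means below. In each of the 53 both libraries of a group lay on the same side of both libraries of the other. Over all genes tested, 18% had both TGFB1 libraries above both GFP libraries and 18.3% had them below. Most changes were under 2-fold: the median absolute log2 fold change of the 53 was 0.74, and 13 reached 2-fold. Over all genes tested the median log2 fold change was -0.00, with quartiles at -0.18 and 0.18. The plot of fold change against level shows the called genes at middle and high levels.

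**Figure D1:**
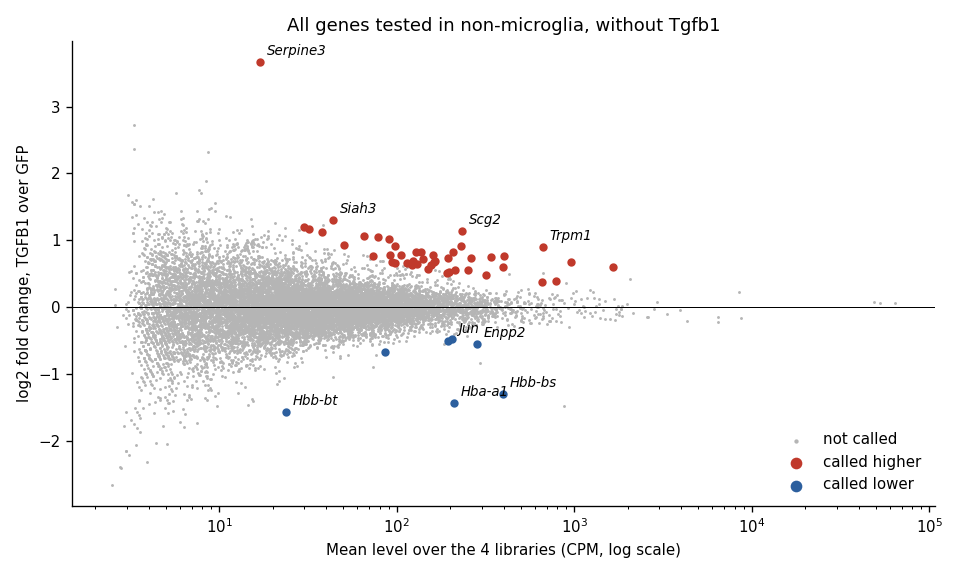
Fold change against level for the 13598 genes tested in non-microglia except Tgfb1, with the mean CPM of the 4 libraries on a log axis and the log2 fold change of TGFB1 over GFP on the other. Red and blue points are the genes called higher and lower; Hbb-bs, Hba-a1 and Hbb-bt lie lowest among the called, Serpine3 highest, and the grey point far below the others at high level is the cone opsin gene Opn1sw, at -1.47 and not called.

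These counts depend on single libraries and on the model. Without GFP library 1 the test called 87 higher and 23 lower, without GFP library 2 77 and 33, without TGFB1 library 1 22 and 6, and without TGFB1 library 2 49 and 7; 21 of the 53 were called in all 4 of these fits. When the contrast was taken from 1 fit of all 18 libraries, which draws its spread mostly from the 14 microglia libraries, 4 genes were called higher (Tgfb1, Qpct and Camk1d among them) and 0 lower, with 248 and 252 at an unadjusted p under 0.05. In microglia the RNA of neurons varied widely, Trpm1 for example from 0.797 to 62.4 CPM. DESeq2 called 30 higher and 4 lower.

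The ON bipolar list, drawn up with earlier results of these data known, gave 8 called genes of 16 tested, all 8 higher. Its median log2 fold change was 0.67, 15 of the 16 were above 0, and in 14 both TGFB1 libraries were above both GFP libraries. Over all genes tested 18% had them above and 0.338% were called higher. Summed over the list, the level was 3660 and 3309 CPM with TGFB1 and 2239.9 and 2210 with GFP. In sorted bulk RNA more cells of a type and more RNA per cell cannot be told apart. Other cell types moved with these values: the 16 Mueller glia genes summed to 28229 and 29086 CPM with TGFB1 against 31015 and 32219 with GFP, the 12 rod genes tested had a median of -0.39 and the 14 cone genes -0.15, with 0 called in any of the 3 lists, and the part of these shifts in the bipolar result was not tested.

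Trpm1 encodes the channel that carries the ON bipolar light response (ENSMUSG00000030523, protein-coding, chr7:64153835-64269775). It stood at 954 and 789 CPM in the TGFB1 libraries and at 485 and 444 in the GFP libraries (edgeR log2 fold change 0.91, SE 0.09, adjusted p = 4.92e-06). Grm6 encodes mGluR6, the receptor that controls that channel (ENSMUSG00000000617, chr11:50850685-50866208). Its levels were 331 and 267 CPM with TGFB1 and 164 and 153 with GFP (edgeR log2 fold change 0.91, SE 0.11, adjusted p = 5.71e-05). In both genes the lower TGFB1 library was well above the higher GFP library. Gng13, the gamma subunit that works with Go in these cells, stood at 122 and 119.8 CPM against 59.1 and 60.0 (log2 fold change 1.02, SE 0.15, adjusted p = 0.000331); 51.6% of its exon bases are shared with Chtf18, a clamp loader gene of replication, which was called too (130.3 and 126 against 67.1 and 68.3 CPM, adjusted p = 0.000539). Reads in shared exons cannot be assigned to 1 of such genes, and the predicted gene Gm12660, called higher, shares 90.2% of its exon bases with Grm6.

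The other called members of the list code for cytoplasmic, nuclear and receptor proteins of bipolar cells. Pcp2, a regulator of Go, stood at 556 and 453 CPM with TGFB1 and 309 and 281 with GFP (log2 fold change 0.77, adjusted p = 0.000155); 51.5% of its exon bases lie in Pet100, a cytochrome oxidase assembly gene called with nearly the same change (467 and 382 against 263 and 239 CPM, log2 fold change 0.75). Cabp5, a calcium-binding protein gene of bipolar cells, gave 255 and 231 CPM against 144 and 146 (0.74, adjusted p = 0.00047). Isl1, a homeobox gene of ON bipolar identity, gave 179 and 169 CPM against 107 and 105 (0.72, adjusted p = 0.00211). In each of these the groups were separated by more than the gap between replicates. The subunit genes Gabrr1 and Gabrr2 of the GABA-gated channel at bipolar terminals were both called, Gabrr2 at 104 and 109 CPM against 46.9 and 55.5 (1.06, SE 0.16, adjusted p = 0.000539) and its neighbour Gabrr1 at 145 and 121 against 78.1 and 77.1 (0.78, SE 0.14, adjusted p = 0.0054). Gabrr1 was not called without TGFB1 library 1 (adjusted p = 0.188).

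The rest of the mGluR6 cascade did not pass the test, and its values were uneven. Gpr179, an orphan receptor gene that anchors the cascade's regulators, stood at 136 and 126 CPM with TGFB1 and 87.6 and 98.3 with GFP (log2 fold change 0.50, adjusted p = 0.142), and Gnb5, the beta subunit bound to those regulators, at 242 and 230.3 against 170.3 and 190.4 (0.39, adjusted p = 0.164). For Nyx, which encodes nyctalopin, the log2 fold change was 0.63 at 8.38 to 17.1 CPM, for Rgs9bp 0.58 and for Rgs7 0.44. Gnao1, the alpha subunit of Go, gave 0.21, and the regulator gene Rgs11 0.10, with overlapping groups. Lrit3, which encodes the leucine-rich repeat protein that helps place TRPM1 at the dendrite tip, was the 1 member below 0, at 28.2 and 36.1 CPM against 37.7 and 44.5 (-0.35, adjusted p = 0.82).

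Promoter windows of some of these genes are given because they were called together and because bipolar and photoreceptor genes are known to be bound by the homeobox factors CRX and OTX2 at the core TAATCC. Windows run from 250 bases before to 50 after the start site, on the gene's strand, from RefSeq annotation on GRCm38.p6. Capitals mark the core or, where it lies on the other strand, GGATTA. Trpm1 has 2 listed start sites; the window of the first (chr7:64153585-64153884, plus strand) holds 1 match, at position -34, and that of the second none. Cabp5 (chr7:13397905-13398204, plus strand) has 2 matches, Gabrr2 (chr4:33062862-33063161, plus strand) has 1 and Grm6 (chr11:50850435-50850734, plus strand) has 0.
Trpm1: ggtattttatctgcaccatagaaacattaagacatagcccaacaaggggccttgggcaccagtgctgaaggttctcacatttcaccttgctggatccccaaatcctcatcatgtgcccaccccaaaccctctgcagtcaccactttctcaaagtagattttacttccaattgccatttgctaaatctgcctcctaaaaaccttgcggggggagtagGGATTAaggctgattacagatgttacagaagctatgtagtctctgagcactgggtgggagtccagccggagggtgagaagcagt
Cabp5: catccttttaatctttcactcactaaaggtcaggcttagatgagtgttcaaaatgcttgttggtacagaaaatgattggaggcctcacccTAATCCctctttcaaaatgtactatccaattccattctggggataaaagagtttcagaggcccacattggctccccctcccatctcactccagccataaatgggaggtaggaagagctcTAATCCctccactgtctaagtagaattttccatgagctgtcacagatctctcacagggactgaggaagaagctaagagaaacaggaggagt
Gabrr2: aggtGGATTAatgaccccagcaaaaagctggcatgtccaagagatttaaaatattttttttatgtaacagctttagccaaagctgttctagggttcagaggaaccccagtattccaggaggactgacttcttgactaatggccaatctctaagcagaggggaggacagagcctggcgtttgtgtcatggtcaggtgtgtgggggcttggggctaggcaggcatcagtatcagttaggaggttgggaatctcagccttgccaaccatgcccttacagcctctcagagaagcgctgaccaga
Grm6: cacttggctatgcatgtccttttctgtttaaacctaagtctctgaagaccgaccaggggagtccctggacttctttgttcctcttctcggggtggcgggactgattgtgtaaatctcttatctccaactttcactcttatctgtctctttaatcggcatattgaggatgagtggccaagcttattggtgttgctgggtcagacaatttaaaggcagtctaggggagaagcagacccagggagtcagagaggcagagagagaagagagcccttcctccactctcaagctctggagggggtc
Of the 46 genes called higher, 32 were matched to a window by symbol, and 7 of the 32 (21.9%) held the core on either strand in at least 1 window: Cabp5, Chtf18, Gabrr2, Igsf21, Isl1, Lrtm1 and Trpm1. Of the tested genes with a window, 7.38% held it, and of all 32851 windows of the same length 7.06%. Genes with several start sites have more windows to hold a match. The SMAD palindrome GTCTAGAC, the same letters on both strands, was found in 1 of the 32 genes, Map4 (3.13%), in 0.28% of the tested genes with a window and in 0.213% of all windows. A match is a run of letters, not a bound site.

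Rod bipolar genes followed the same direction, with a median of 0.69 and 4 of 6 called higher, against 0.338% of all genes tested. Prkca, the protein kinase C gene used as the classical rod bipolar marker, stood at 131 and 107 CPM with TGFB1 and at 79.6 and 70.5 with GFP (log2 fold change 0.66, SE 0.15, adjusted p = 0.0386), but was not called without TGFB1 library 1 or without GFP library 2 (adjusted p up to 0.585). Car8, a carbonic anhydrase-related gene, gave 214 and 192 CPM against 129 and 123 (0.69, adjusted p = 0.00211, and 0.0592 without TGFB1 library 1). Qpct, which encodes glutaminyl cyclase, the enzyme that caps peptides with pyroglutamate, gave 183 and 167 CPM against 96.4 and 101 (0.83, adjusted p = 0.000483). Sebox and Vstm2b did not pass, at log2 fold changes of 0.69 (adjusted p = 0.0611) and 1.32 (adjusted p = 0.131).

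Of 7 tested genes that mark bipolar cells as a whole 0 were called, with a median of 0.22: Otx2, a homeobox factor gene of bipolar cells and photoreceptors, stood at 92.7 and 80.7 CPM with TGFB1 and 65.9 and 72.7 with GFP (log2 fold change 0.32, adjusted p = 0.654), and Scgn, the secretagogin gene, gave 0.27 (adjusted p = 0.959). Of the OFF cone bipolar list 2 of 7 genes were abundant enough to test and 0 were called. Grik1, the kainate receptor gene of OFF cells, lay lower in both TGFB1 libraries, at 61.9 and 50.1 CPM against 72.0 and 77.6 (-0.41, adjusted p = 0.561). With 0.39% of all tested genes called, 0 calls in lists this short is near that share. The differences between the ON, rod, OFF and whole-class bipolar lists were not tested. Neurod4, a basic helix-loop-helix factor gene of bipolar development that is in no list, was called higher, at 229 and 169 CPM against 123 and 127 (0.67, adjusted p = 0.0182), and lost the call without TGFB1 library 1 (adjusted p = 0.52).

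**Figure D2:**
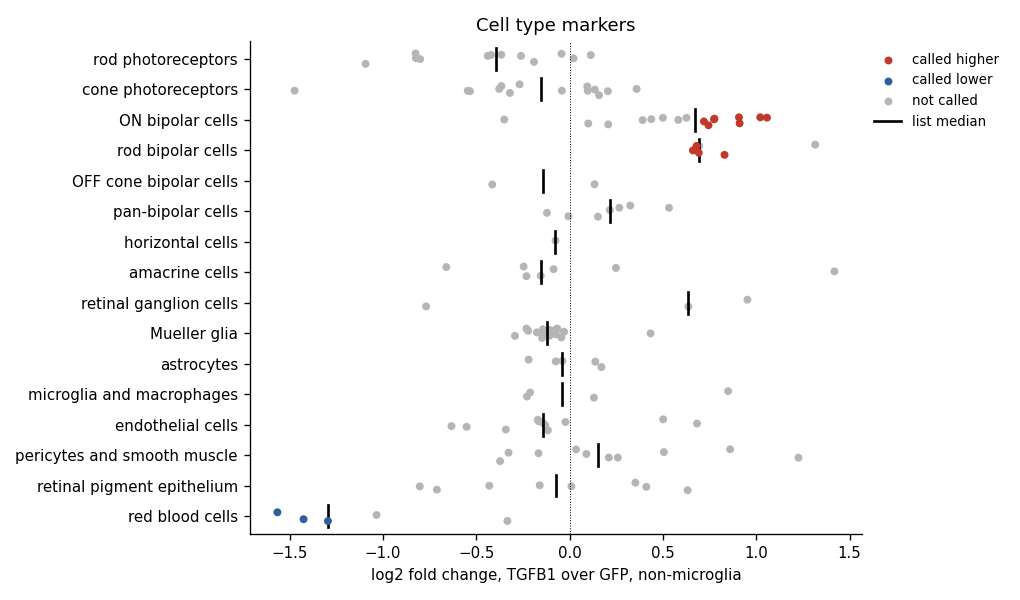
Log2 fold change of TGFB1 over GFP for each tested marker of 16 retinal and other cell types, 1 point a gene, with a bar at the list median. The called points, red for higher and blue for lower, lie in the ON bipolar (median 0.67), rod bipolar (0.69) and red blood cell (-1.30) lists. The lists were drawn up with earlier results of these data known.

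Of 11 tested genes in the list of granins and prohormone processing 3, all granins, were called higher, against 0.338% of all genes tested. The list was uneven, with 7 genes above 0, 4 below and a median of 0.20. In 5 genes both TGFB1 libraries were above both GFP libraries, against 18% over all genes tested. Scg2, the secretogranin II gene (ENSMUSG00000050711, chr1:79434669-79440120), stood at 350.3 and 293 CPM with TGFB1 and at 159.6 and 130.0 with GFP (edgeR log2 fold change 1.15, SE 0.12, adjusted p = 4.92e-06). Chgb, the chromogranin B gene, gave 263 and 271 CPM against 163 and 136 (0.83, SE 0.11, adjusted p = 0.000155). Chga, chromogranin A, gave 118 and 112 CPM against 69.3 and 74.1 (0.68, SE 0.14, adjusted p = 0.0223), and was not called without GFP library 1 or without either TGFB1 library (adjusted p up to 0.222). Granins are the matrix proteins of dense-core vesicles. Scg3 gave 0.48 (adjusted p = 0.543), Scg5 0.02 and the processing enzyme gene Cpe 0.20, none of them called, and Pcsk2, the prohormone convertase, lay at 2.56 and 3.82 CPM against 9.14 and 5.73 (-1.22, adjusted p = 0.626).

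Among genes of the synaptic vesicle and the ribbon synapse, 2 of 21 tested were called, both higher (median 0.14). In 9 both TGFB1 libraries were above both GFP libraries, against 18% over all genes tested, of which 0.338% were called higher. Snap25, a SNARE protein gene of vesicle fusion, stood at 475 and 486 CPM with TGFB1 and 298 and 333 with GFP (log2 fold change 0.61, SE 0.09, adjusted p = 0.000539). Cacna2d4, an auxiliary subunit of the calcium channel at retinal ribbons, gave 252 and 254 CPM against 159 and 187 (0.55, SE 0.11, adjusted p = 0.0146), and lost the call without GFP library 1 or either TGFB1 library (adjusted p up to 0.062). Cplx3, the complexin of ribbon synapses, and Cacna1f, the pore subunit of that channel, did not pass, at 0.47 (adjusted p = 0.0537) and 0.71 (adjusted p = 0.0611). Syt1, the vesicle calcium sensor gene, gave 0.15 and Ctbp2, which encodes the ribbon protein, 0.00. Nsf, the ATPase that takes spent SNARE complexes apart, is in no list and was called, at 315 and 281 CPM against 199 and 206 (0.56, adjusted p = 0.00577, and 0.157 without TGFB1 library 1).

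Receptor genes outside the ON bipolar list gave no further calls. The share called over all genes tested was 0.39%, so lists of this length without a further call are near it. In the GABA and glycine receptor list the 2 called of 9 were Gabrr1 and Gabrr2, and the list's median was 0.75. The glycine receptor gene Glrb lay at -0.09. Among 15 glutamate receptor genes Grm6 was the 1 called (median 0.04). Of 14 potassium channel genes 0 were called, the nearest being Kcnma1, the large-conductance calcium-activated channel (0.52, adjusted p = 0.106).

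**Figure D3:**
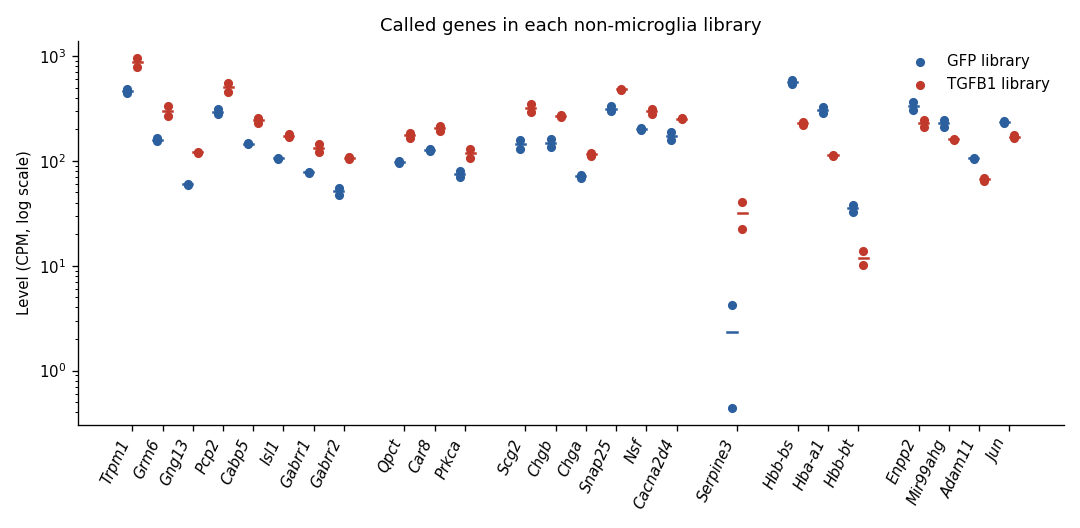
Level in each of the 4 non-microglia libraries, on a log CPM axis, for 25 called genes grouped as ON bipolar, rod bipolar, secretory and synaptic, Serpine3, hemoglobin and other lower genes. Points are libraries (blue GFP, red TGFB1) and bars are group means; the groups do not overlap in any gene shown, and Serpine3 has the most distant GFP points, 4.19 and 0.441 CPM.

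The remaining called genes include several of neuronal membranes and growth. Atp2b1, a plasma membrane calcium pump gene, stood at 249 and 219 CPM with TGFB1 and 153 and 171 with GFP (log2 fold change 0.53, adjusted p = 0.0223). Slit1, an axon guidance ligand gene, gave 43.6 and 44.6 CPM against 16.8 and 22.5 (1.17, adjusted p = 0.0191), and Igsf21, an adhesion protein gene of inhibitory synapses, 83.7 and 91.8 against 30.9 and 53.3 (1.07, adjusted p = 0.0198). Siah3, of the SIAH ubiquitin ligase family, gave 70.1 and 54.4 CPM against 25.1 and 25.1 (1.31, adjusted p = 0.00158). Mir124-2hg, the host transcript of a neuronal microRNA, gave 148 and 148 CPM against 98.3 and 92.1 (0.63, adjusted p = 0.0153). Lin7a, a scaffold protein gene of cell junctions and synapses (0.65), Map4, a microtubule-binding protein gene (0.39), and Ablim1, an actin-binding protein gene (0.48), also rose. Each of these 8 lost its call when a library was left out: Igsf21 without GFP library 1 or TGFB1 library 2 and the other 7 without TGFB1 library 1, 5 of them also without another (adjusted p up to 0.422, for Map4).

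Car10, a carbonic anhydrase-related gene (0.83, adjusted p = 0.000678), Lrtm1, a leucine-rich repeat membrane protein gene (0.77, adjusted p = 0.000539), and Rpa1, a subunit of the single-strand DNA-binding protein (0.73, adjusted p = 0.000367), rose and were called in all 4 fits that left out a library. Nme1, a nucleoside diphosphate kinase gene (0.51), Zfp365 (0.69), Fam135b (0.79), Strip2 (0.77), Bend4 (1.20), Frmpd1 (0.93) and Wscd2 (0.66) rose and lost the call without TGFB1 library 1, and some also without another library (adjusted p up to 0.639, for Frmpd1). Serpine3, a serpin gene, had the widest change after Tgfb1. It had 95 and 53 counts with TGFB1 and 11 and 1 with GFP, which are 40.6, 22.5, 4.19 and 0.441 CPM (log2 fold change 3.67, SE 0.54, adjusted p = 0.00436). It stayed called when any 1 library was left out, but the log2 fold change was 6.0 without GFP library 1 and 2.90 without GFP library 2. One GFP library lies under the floor, the gene passed the filter through the TGFB1 libraries, and 24.8% of its exon bases overlap Ints6. A further 4 called genes bear predicted or accession-based names.

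Hemoglobin genes were lower in the TGFB1 retinas. Of the 5 red blood cell genes tested 3 were called lower, against 0.0515% of all genes tested, with a list median of -1.30. Hbb-bs, a beta globin gene (ENSMUSG00000052305, chr7:103826534-103828096), stood at 236 and 222 CPM with TGFB1 and at 586 and 537 with GFP (edgeR log2 fold change -1.30, SE 0.09, adjusted p = 3.18e-09). Hba-a1, an alpha globin gene (ENSMUSG00000069919, chr11:32283511-32284465), gave 112 and 114 CPM against 323 and 285 (-1.43, SE 0.11, adjusted p = 1.04e-08). Hbb-bt, the other beta globin gene, gave 13.7 and 10.2 CPM against 38.1 and 32.6 (-1.57, SE 0.28, adjusted p = 0.0054, and 0.0618 without TGFB1 library 2). The gap between the groups was several times the gap between replicates in Hbb-bs and Hba-a1. Hbb-bs and Hbb-bt, like Hba-a1 and Hba-a2, are near-identical copies, so the split of reads between them is uncertain. Alas2, the heme synthesis enzyme gene of red cell precursors, lay at 39.7 and 17.4 CPM against 60.2 and 56.9 (-1.03, adjusted p = 0.232), and the red cell anion exchanger gene Slc4a1 had 0 to 0.854 CPM.

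The other 4 genes that fell are Enpp2, Mir99ahg, Adam11 and Jun. Enpp2 encodes autotaxin, the secreted enzyme that makes lysophosphatidic acid, and stood at 212 and 247 CPM with TGFB1 and 365 and 304 with GFP (log2 fold change -0.54, SE 0.11, adjusted p = 0.0161). Adam11, a non-catalytic ADAM family gene, gave 68.8 and 64.2 CPM against 105 and 106 (-0.67, SE 0.15, adjusted p = 0.0386). Jun, the AP-1 subunit gene, gave 164 and 176 CPM against 242 and 232 (-0.48, SE 0.11, adjusted p = 0.0386). Mir99ahg, the host transcript of a microRNA cluster, gave 157 and 163 CPM against 245 and 210.3 (-0.51, adjusted p = 0.0353). The groups were apart in all 4, but each lost its call without some library: Adam11 in all 4 such fits (adjusted p up to 0.233), Jun and Mir99ahg in all but that without GFP library 2 (up to 0.396 and 0.243), and Enpp2 without GFP library 1 or TGFB1 library 1 (up to 0.264).

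Of the TGF-beta pathway beyond Tgfb1 itself, Jun was the 1 gene called. Since 0.39% of all genes tested were called, lists of this size would hold few calls in any case. In the list of ligands and latent activation Tgfb1 was the 1 called of 13 (median -0.00). Tgfb2, a ligand made by many retinal cells, stood at 420.4 and 336 CPM with TGFB1 and 349 and 354 with GFP (log2 fold change 0.11, adjusted p = 0.919), and Tgfb3 gave 0.01. Thbs1, which encodes the activator thrombospondin 1, was high in TGFB1 library 1 alone, at 133 CPM against 26.8, 17.1 and 39.2 in the others. Of 17 receptor and SMAD genes 0 were called (median -0.04), with Smad1 at 0.67 (adjusted p = 0.719), Ski at -0.32 (adjusted p = 0.786), Smad3 at -0.06 and Tgfbr1 at -0.12.

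Target and feedback genes of the pathway gave 1 called of 18 tested, Jun, lower, and a median of 0.01. Smad7, the inhibitory SMAD gene that TGF-beta induces in many cells, stood at 6.41 and 7.65 CPM with TGFB1 and 7.62 and 6.61 with GFP (log2 fold change -0.02, SE 0.47). Skil gave 0.22, Pmepa1 -0.38, Ccn2 0.13 (283 and 263 CPM against 236 and 265) and Fn1 0.10, with overlapping or nearly touching groups. Ccn1, a matricellular protein gene, lay lower in both TGFB1 libraries, at 216 and 207 CPM against 308 and 264 (-0.43, SE 0.10, adjusted p = 0.0658). In the related BMP list 0 of 10 were called (median -0.17), the lowest p being that of Id2, an inhibitor of helix-loop-helix factors, at 135 and 142 CPM against 168 and 186 (-0.35, adjusted p = 0.355).

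**Figure D4:**
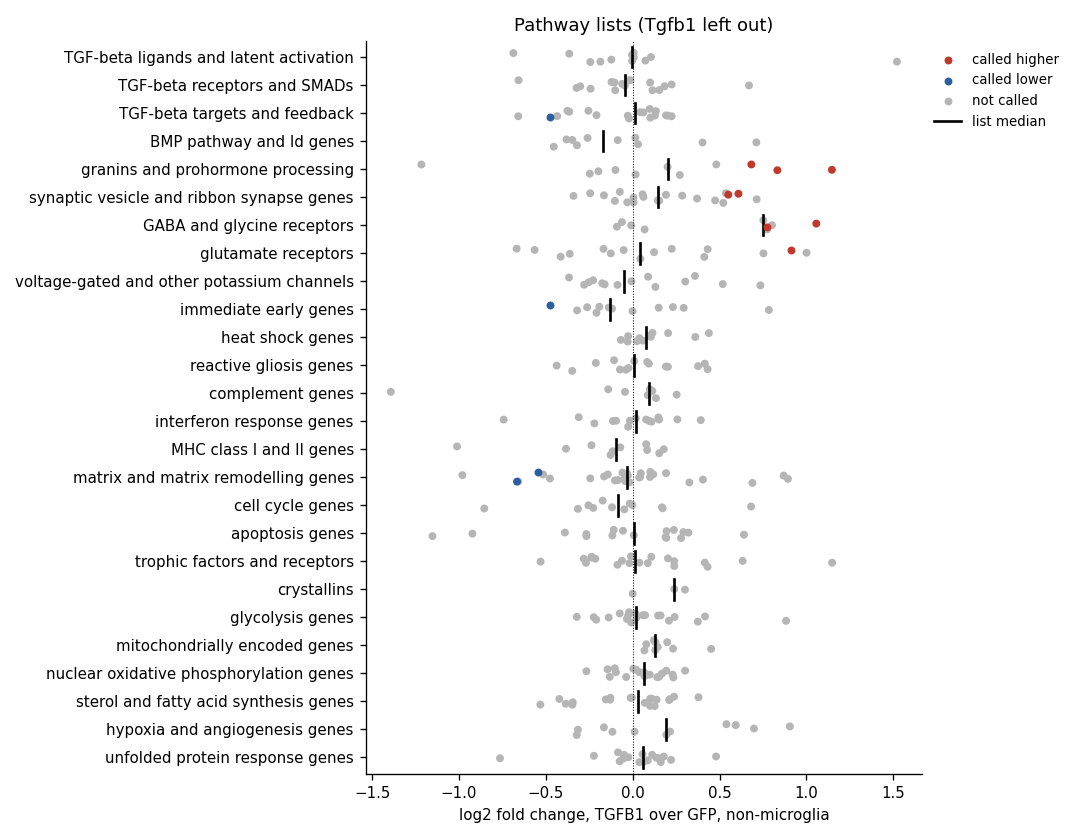
Log2 fold change of TGFB1 over GFP for the tested members of 26 pathway lists, 1 point a gene, with a bar at each list median and Tgfb1 left out. Called genes (red higher, blue lower) lie in the granin, synaptic, GABA and glutamate receptor lists and, as lower, in the TGF-beta target, immediate early and matrix lists; the medians of the 3 TGF-beta lists lie within 0.05 of 0.

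No marker of photoreceptors, glia or vessels was called, and several of their lists leaned to one side. The share called over all genes tested was 0.39%, so short lists without a call are near it. Rod genes gave 0 called of 12 (median -0.39, 5 with both TGFB1 libraries below both GFP libraries, against 18.3% over all genes tested). Sag, which encodes rod arrestin and is also expressed in cones, stood at 181 and 241 CPM with TGFB1 and 326 and 422 with GFP (edgeR log2 fold change -0.83, SE 0.16, adjusted p = 0.0799), and DESeq2 called it lower. Cone genes gave 0 of 14 (median -0.15). The short-wavelength opsin gene Opn1sw was at 314 and 609 CPM with TGFB1 and at 1242 and 1322 with GFP (-1.47, SE 0.45, adjusted p = 0.7): the groups were apart, and the TGFB1 libraries differed almost 2-fold. Pde6h, the inhibitory subunit of the cone phosphodiesterase, gave -0.55 (adjusted p = 0.119), and Gnb3, the beta subunit that cones and ON bipolar cells share, lay the other way, at 961 and 1047 CPM against 744 and 823 (0.36, SE 0.08, adjusted p = 0.0528), and DESeq2 (adjusted p = 0.0205) and limma voom (adjusted p = 0.0289) called it higher.

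Mueller glia genes gave 0 called of 16, with 15 below 0, 10 with both TGFB1 libraries below both GFP libraries and a median of -0.12. Over all genes tested, 18.3% had both TGFB1 libraries below and 0.39% were called. Car14, a carbonic anhydrase gene, had the lowest p, at 839.9 and 827 CPM against 1042 and 1000.2 (log2 fold change -0.29, adjusted p = 0.144), and Dkk3, a secreted protein gene of these cells, stood at 5748 and 6147 against 6804 and 7076 (-0.22, adjusted p = 0.282). Apoe (-0.15), Slc1a3, the glutamate transporter gene (-0.11), and Rlbp1, of the visual cycle (-0.14), differed less. Gliosis genes gave 0 of 15 (median 0.01): Gfap stood at 640.0 and 688 CPM against 694 and 669.6, and Serpina3n at 286 and 250.3 against 267 and 266. Astrocyte genes gave 0 of 5, amacrine genes 0 of 7 (median -0.16), ganglion cell genes 0 of 3, pigment epithelium genes 0 of 8 and endothelial genes 0 of 11 (median -0.15). Pericyte genes gave 0 of 10, and their summed level was 402 CPM in GFP library 2 against 799 to 1016 in the other 3. Lymphocyte and neutrophil lists held no gene abundant enough to test, with summed levels of 2.12 to 7.22 CPM.

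Gene groups of stress, immunity and metabolism also held few calls or none. With 0.39% of all tested genes called, 0 calls in a list this short is near that share and says little about the list. Jun was the 1 called of 12 immediate early genes (median -0.13), with Fos at -0.32 (adjusted p = 0.721), and heat shock genes gave 0 of 12. Enpp2 and Adam11 were the 2 called, both lower, of 29 matrix genes (median -0.03), and Bgn, the biglycan gene, lay at 47.9 and 53.1 CPM with TGFB1 and 27.1 and 28.2 with GFP without passing (0.87, adjusted p = 0.08). Interferon genes gave 0 of 15, MHC genes 0 of 10, complement genes 0 of 8, apoptosis genes 0 of 17 and cell cycle genes 0 of 12. Trophic factor genes gave 0 of 20, with Igf1 at 1.15 (adjusted p = 0.317) and Cntf at 0.42 (adjusted p = 0.311). Glycolysis genes gave 0 of 20, although Eno2, the neuronal enolase gene (0.42, adjusted p = 0.106), and Slc2a3, the neuronal glucose transporter gene (0.88, adjusted p = 0.313), lay higher in both TGFB1 libraries. Nuclear respiratory chain genes gave 0 of 21 and mitochondrially encoded genes 0 of 9. The nuclear genes leaned higher, 15 above 0 and 6 below (median 0.07). All 9 mitochondrially encoded genes lay above 0 (median 0.13), against 49.9% of all genes tested. In 3 of these 9 both TGFB1 libraries were above both GFP libraries. Sterol genes gave 0 of 20, hypoxia genes 0 of 11, unfolded protein response genes 0 of 18 and crystallins 0 of 3.

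The 8 genes nearest to the threshold that did not pass all lay higher with TGFB1. Besides Gnb3 they include Lactbl1 (log2 fold change 0.60, adjusted p = 0.0504), Gem, a small GTPase gene (0.62, adjusted p = 0.0514), Fbxw7, a ubiquitin ligase subunit gene (0.77, adjusted p = 0.0514), Tubb4a, a neuronal tubulin gene (0.69), Slc4a10, a neuronal bicarbonate transporter gene (1.16), and Pcdha4, a clustered protocadherin gene (1.19), the last 3 at an adjusted p of 0.0537. Pcdha4 shares most of its exon bases with its neighbours in the cluster.

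Of the 53 called genes 35 had a mean level in microglia under 10% of that in non-microglia. The same share over all genes tested was not computed, so this count does not set the called genes apart. The same treatment contrast in microglia could be fitted for 25 of the 53, and edgeR called 0 there (Qpct alone had an unadjusted p under 0.05, at 0.00158, adjusted p = 0.225), against 26 higher (0.237%) and 8 lower (0.0729%) of 10970 genes. The difference between the treatment effects in non-microglia and in microglia was tested directly in the fit of all 18 libraries. Of 15321 genes, 2 had a larger effect in non-microglia (0.0131%) and 0 a smaller one, with 366 and 345 at an unadjusted p under 0.05. Tgfb1, whose counts may hold vector RNA, was among the 2. DESeq2 called 2 and 0.

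For Camk1d, a calcium-regulated kinase gene, the effect was larger in non-microglia but the difference did not pass the test (difference 0.94, SE 0.17, edgeR adjusted p = 0.0644). On the scale of that fit its levels were 28.0 and 27.9 CPM against 14.7 and 15.2 in non-microglia and 179 ± 16.4 against 184 ± 10.9 (n = 7 each) in microglia. Qpct was called in non-microglia and is read in both fractions, at 140 and 127 CPM against 74.3 and 76.8 in non-microglia and 142 ± 12.9 against 119 ± 8.33 in microglia (n = 7 each), and the difference of its effects did not pass the test (difference 0.56, SE 0.15, edgeR adjusted p = 0.696).

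**Figure D5:**
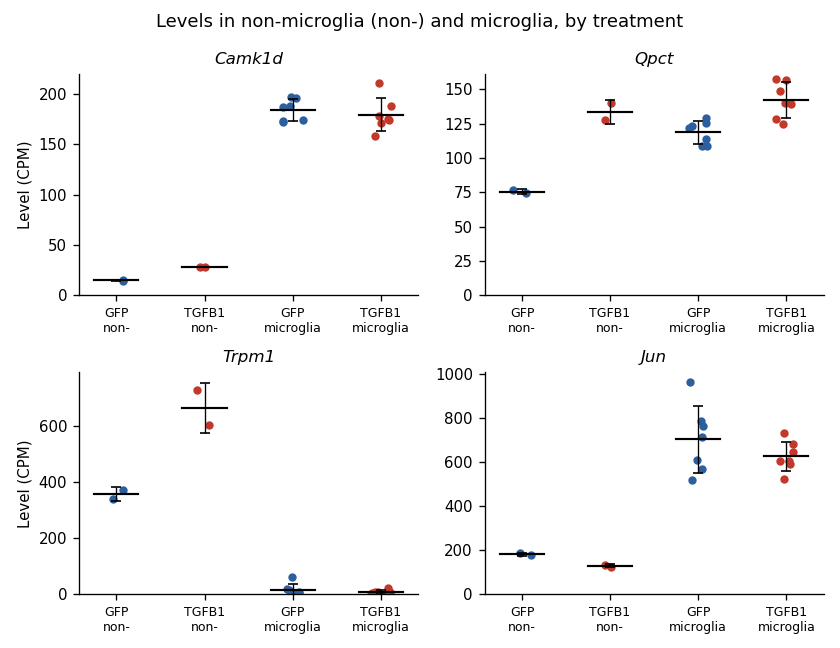
Level of 4 genes in the 4 groups of the series, in CPM on the scale of the 18-library fit; points are libraries (2 a group in non-microglia, marked non-, and 7 a group in microglia) and bars are means with SD. Qpct, Camk1d and Trpm1 have both TGFB1 non-microglia libraries above both GFP ones and Jun has them below; the treatments overlap in microglia for all 4 genes, and Trpm1 lies between 0.797 and 62.4 CPM there.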

How the data were processed

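Non-microglia RNA was compared between 2 TGFB1 and 2 GFP libraries grouped by sample title. The authors deposited 1 table of raw counts per Ensembl gene, without normalization. Per the submitters' processing notes STAR, featureCounts, GRCm38.p6 and DESeq2 were used. Tool versions, annotation and strand setting were not given in the sources used here. Of 54532 genes 54495 matched GENCODE M21 by identifier. Reads in exons that genes share may be counted for each, so overlaps were computed on either strand.

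The main test was the quasi-likelihood F test of edgeR 4.0.16 (R 4.3.3) with TMM factors, filterByExpr (minimum count 10) and robust dispersion on the 4 libraries, with Benjamini-Hochberg adjustment over all genes tested. A standard error is the log2 fold change divided by the square root of F. The difference from microglia came from 1 fit of all 18 libraries in 4 groups. Totals of 2318212 to 2604930 counts limit the precision, and intervals cover counting error only, since reads carry no molecular identifiers. Alternatives were DESeq2 1.42.0, limma 3.58.1 voom, RLE size factors, no filter, no robust dispersion, a replicate block, the fit of all 18 libraries and leaving out each library. On simulated counts for the 13598 genes, changes of each size were planted in 100 genes, all above a minimum mean count. Of these the main test recovered 70% of 2-fold and 19% of 1.5-fold changes, and recovery in weaker genes was not simulated. Among those called 11% were false, above the threshold of 0.05. Replicates differed by more than counting noise (chi-square per degree of freedom 2.55 and 3.36).

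Members, gene lists and tests were chosen with earlier results of these data known. Named genes are Tgfb1, every called gene with a proper name, called list members or otherwise the members with the smallest p or highest level, and the 8 genes nearest the threshold. Promoter windows come from RefSeq. Results of some genes are not reported here.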

Additional observations from a re-analysis of the deposited data

Results flagged for a closer look

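For Tgfb1 the TGFB1 effect differed between non-microglia and microglia by the test of the difference itself. Retinas of the TGFB1 group were given a virus that carries TGFB1, and the counts cannot tell its RNA from that of the cells' own gene. The test therefore says nothing on a response of the cells' own Tgfb1. The effect in non-microglia was larger by 11.20 on the log2 scale (SE 0.80, edgeR adjusted p = 1.55e-08); its size depends on the prior count, since both GFP non-microglia libraries had 0 counts. In microglia Tgfb1 had 18 to 40 counts a library with GFP and 17 to 59 with TGFB1.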

How the results depend on the processing

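The 53 called genes kept their direction wherever the 11 alternatives gave a value (DESeq2 gave some of them no adjusted p), and 3 of them, Tgfb1 and Qpct included, kept the call under each. Counts of genes higher and lower were 46 and 7 in the main test, 46 and 7 with RLE size factors, 44 and 7 with voom, 36 and 5 without robust dispersion, 30 and 4 with DESeq2, and 86 and 16 without the filter on low counts. They fell to 4 and 0 in the fit of all 18 libraries. Leaving out 1 library gave 22 to 87 higher and 6 to 33 lower; the lone library of a group was then assumed to vary like the other group. Libraries of the same replicate number shared no deviation (correlation -0.0700 over 13598 genes), but 2 pairs are too few to tell whether the libraries were paired. With the replicate block 89 and 20 were called, with all 53 among them. The ON bipolar list kept 7 to 9 called members when a library was left out and 0 in the fit of all 18 libraries. For the difference from microglia, 2 larger and 0 smaller effects became 9 and 3 without the filter, 1 and 0 without robust dispersion, and 1 to 2 larger and 0 to 1 smaller when a non-microglia library was left out. In each case the cause was not tested. With 2 libraries a group, the test of simulated counts recovered 19% of 1.5-fold changes, so changes of that size are mostly missed, and for the difference of effects it recovered 20% of 2-fold changes.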
